A study of Mus musculus with 8 samples.

Results

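In the ventricles of 7-day-old mice, 342 of 45987 H3K27Ac peaks (0.744%) carried a clear signal in control hearts and close to none in hearts whose cardiomyocytes lacked Arid1a. They are called members here, and they were selected on the measured levels: a control level of at least 4.5 and a knockout (cKO) level of at most 2. A level is the log2 of a group's mean normalized read count in the peak, as the authors' deposited table gives it. H3K27Ac ChIP-seq was done on whole ventricles collected at postnatal day 7 from 2 control hearts and 2 cKO hearts, and each heart also had an input library, which makes 8 libraries. Controls were littermates with floxed Arid1a alleles (Arid1a f/f) and no Cre. The cKO animals were aMHC-Cre;Arid1a f/f, and all were on a C57B/6 J background. The aMHC promoter drives Cre in cardiomyocytes around birth, so other cells of the ventricle kept Arid1a. No group carried Cre with intact Arid1a, so the transgene and the loss of Arid1a cannot be told apart. The table holds 1 mean per group and 0 columns for single libraries, so spread between hearts and depth are unknown and no value below has a replicate error.

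Acetylation of histone H3 at lysine 27 marks active promoters and enhancers, and enhancers tend to lie in introns and between genes. Arid1a is a DNA-binding subunit of the BAF (SWI/SNF) complexes, which slide and evict nucleosomes and so open enhancers to transcription factors. In heart muscle such enhancers are bound by factors of the MEF2, GATA, TBX, NKX2-5, MEIS, TEAD and nuclear receptor families, which act together on genes of contraction, conduction and metabolism.

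The sequences that best show the DNA under the members come from the mm10 (GRCm38) genome and are written 5′ to 3′ on the strand named. The first set shows the nuclear receptor core AGGTCA, in capitals, with 25 bases on either side. The 4 members with the highest control levels all hold it in their central 500 bp.
Chac1, chr2:119355734-119355789 (+): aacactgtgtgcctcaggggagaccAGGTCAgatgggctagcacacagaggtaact
Anks1b, chr10:90667750-90667805 (-): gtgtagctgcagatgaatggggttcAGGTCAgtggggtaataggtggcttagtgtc
intron of Rap1gap2 near Olfr412, chr11:74434125-74434180 (+): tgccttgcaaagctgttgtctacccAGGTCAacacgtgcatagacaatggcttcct
Hrh2, chr13:54177646-54177701 (+): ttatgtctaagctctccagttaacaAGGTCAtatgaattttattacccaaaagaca

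The second set shows matches to the MEF2 motif in capitals: CTA and TAG with 4 bases between them, each A or T. These are the 4 members with the highest control levels among the 25 that hold a match.
Insc, chr7:114762821-114762880 (+): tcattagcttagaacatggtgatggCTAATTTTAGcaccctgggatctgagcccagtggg
Krtap11-1, chr16:89617575-89617634 (+): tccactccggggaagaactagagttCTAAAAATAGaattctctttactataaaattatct
Slc9a7, chrX:20306054-20306113 (+): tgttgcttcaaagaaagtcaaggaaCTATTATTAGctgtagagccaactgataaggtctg
Plxna4, chr6:32659881-32659940 (+): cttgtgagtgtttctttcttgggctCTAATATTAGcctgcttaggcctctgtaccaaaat

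The third set shows the MEIS motif TGACAG in capitals, in 2 of the 3 members with the highest control levels that hold it.
intron of Rap1gap2 near Olfr412, chr11:74434014-74434069 (+): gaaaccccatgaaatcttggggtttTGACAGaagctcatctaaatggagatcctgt
Tmem63c, chr12:87031333-87031388 (-): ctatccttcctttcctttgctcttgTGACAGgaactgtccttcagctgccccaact

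The fourth set shows in capitals the E-box CAGGTG, which ZEB and SNAI factors bind, chosen in the same way. The peaks near Chac1, Anks1b and in Rap1gap2 thus carry both this E-box and the nuclear receptor core.
Chac1, chr2:119355775-119355830 (+): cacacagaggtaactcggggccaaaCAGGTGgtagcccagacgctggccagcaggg
Anks1b, chr10:90667936-90667991 (-): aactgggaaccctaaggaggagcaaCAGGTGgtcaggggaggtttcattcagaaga
intron of Rap1gap2 near Olfr412, chr11:74434204-74434259 (+): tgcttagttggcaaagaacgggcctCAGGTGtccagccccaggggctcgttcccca

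The strongest member of all lies near Chac1, and the 200 bp at its centre are shown with each motif match in capitals. In the motifs N is any base. The matches are 1 to TGANTCA, the loose pattern searched for AP-1, 1 to the glucocorticoid and mineralocorticoid receptor (GR/MR) motif ACANNNTGT and 1 to the nuclear receptor core. The AP-1 match has T at its middle base.
Chac1, chr2:119355594-119355793 (+): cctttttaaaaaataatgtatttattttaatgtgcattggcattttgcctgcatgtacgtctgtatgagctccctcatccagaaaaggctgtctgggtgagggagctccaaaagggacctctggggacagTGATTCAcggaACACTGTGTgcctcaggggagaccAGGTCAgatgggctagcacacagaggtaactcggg

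Kcnj3 had the strongest member at a promoter, and its RefSeq promoter sequence, all of which lies inside the peak, is shown from 250 bases before to 50 after the start. Capitals mark its 1 match to the TBX motif AGGTGT, on the reverse strand. That motif is found in 13.7% of 32851 RefSeq promoters of the same length.
Kcnj3, chr2:55435720-55436019 (+): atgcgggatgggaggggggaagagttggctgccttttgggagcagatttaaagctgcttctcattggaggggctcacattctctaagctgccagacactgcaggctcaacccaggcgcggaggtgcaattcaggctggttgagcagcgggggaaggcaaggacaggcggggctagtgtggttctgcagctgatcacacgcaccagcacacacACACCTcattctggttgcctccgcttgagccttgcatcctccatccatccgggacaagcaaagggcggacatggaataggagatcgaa

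The levels that chose the members are described first, with no test. Control levels ran from 4.5 to 7.80 with a median of 5.04, which is 22.6 to 223 normalized reads with a median of 32.9. Levels in cKO ran from -0.08 to 1.93 with a median of 0.92, or 0.946 to 3.81 reads. Members were thus moderate peaks in controls, with an upper quartile of 5.47 against a median of 5.49 over all peaks. In cKO hearts none exceeded 3.81 normalized reads. Library scaling and input treatment are not stated, so these values need not equal the reads sequenced in a peak. The difference of the deposited levels, cKO minus control, lay between -7.88 and -2.60, while its median over all peaks was 0.01. Its most negative values rest on cKO levels too low for an exact fold, as set out below. In whole ventricles, less acetylation per cardiomyocyte and fewer cardiomyocytes cannot be told apart from a peak's level alone. The strongest peaks of 7 cardiomyocyte markers, given further on, differed by -0.43 (Tnnt2) to 0.28 (Tnni3). Over all 54 cardiomyocyte marker peaks the median difference was -0.2, and 5 were at least 2-fold lower. The part of cell composition was not tested. The reverse pattern, at least 4.5 in cKO and at most 2 in controls, was met by 21 peaks (0.0457%), none above 6.08 in cKO. A fall of at least 2-fold was far more common, with 4878 peaks (10.6%).

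The value -0.08, or 0.946 reads, is the lowest in the table in either group, and what it stands for is not stated. In cKO it was reached by 279 peaks, among them 126 members (36.8% of the 342), and in controls by 46 peaks. Above it the cKO levels of members took few values: 39 members stood at 0.51 (1.42 reads), 35 at 0.92 or 0.93, 43 at 2.36 or 2.38 reads, 27 at 1.51, 34 at 1.73 and 38 at 1.92 or 1.93. The 342 members thus had 10 different cKO levels against 146 different control levels, so their cKO levels come in steps. Because of this, wherever the cKO group mean does not exceed 3 reads, the control mean is divided by 3 reads and the fold is a lower bound ("at least"). That holds for 270 members, which were at least 7.54- to at least 74.3-fold lower, with a median bound of 11.4. The other 72 members were 6.06- to 26.0-fold lower. Their cKO means took only the values 3.32, 3.78 and 3.81 reads, so these folds are approximate.

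Some peaks missed the rule by 1 of its thresholds alone. The lowest control level inside was 4.5, at a peak near Pitpnb that had 0.51 in cKO. Among peaks with a cKO level of at most 2, 5 stood just outside at 4.49 in controls, near Heca, Ttc32, Gm34637, Gm40271 and Kcnj3, with cKO levels from -0.08 to 1.73. The highest cKO level inside was 1.93, at 7 peaks near Tmem37, Adra1b, Zmynd11, 6030471H07Rik, Shroom3, Tspan3 and Mtm1. Among peaks with a control level of at least 4.5, 34 stood just outside at 2.09 in cKO, and the one near Mgst3 had a control level of 7.01. In all, 977 peaks had a cKO level of at most 2, and 635 of them were below 4.5 in controls.

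With the cKO limit fixed at 2, a stronger peak had to fall further to be a member, so shares by control level are a description of the choice. Of 4421 peaks with control levels from 4.5 to 5, 162 were members (3.66%). The share was 2.26% (99 of 4379) from 5 to 5.5, 1.16% (47 of 4041) from 5.5 to 6, 0.43% (31 of 7206) from 6 to 7 and 0.0515% (3 of 5829) from 7 to 8. Above the strongest member stood 6821 peaks, and the lowest cKO level among them was 3.38. Members were 645 to 4026 bp wide, and from 4.5 to 5 their median width was 1223 bp against 1477 bp for other peaks.

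**Figure D1:**
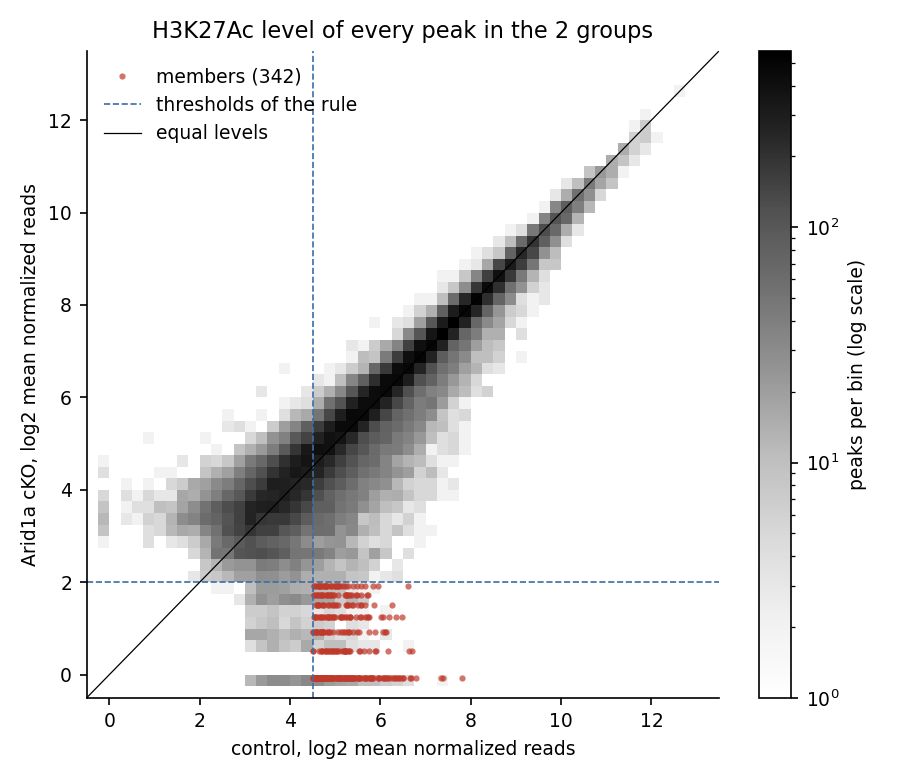
Each of the 45987 peaks by its control level (x axis) and its cKO level (y axis), both in log2 mean normalized reads, with grey for the number of peaks per bin and red points for the 342 members. Members fill the lower right corner set by the dashed thresholds and lie on horizontal steps, the lowest at -0.08.

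Several of the strongest members were single losses among steadier peaks. The peak 4.45 kb from the start of Chac1, which encodes a glutathione-degrading enzyme, lay between genes at chr2:119354082-119357305. Its level was 7.80 in controls (223 reads) and -0.08 in cKO, at least 74.3-fold lower. The other 4 peaks nearest to Chac1 did not share this fall: their differences ran from -0.30 to 0.62. The next was in an intron of Anks1b, a gene for a synaptic scaffold protein, at chr10:90666025-90669602. It went from 7.38 (167 reads) to -0.08, at least 55.5-fold lower, while the other 3 peaks of Anks1b differed by -0.44 to 0.49. Near Hrh2, the histamine H2 receptor gene, an intergenic peak at chr13:54176482-54179011 stood at 6.79 (111 reads) in controls and at -0.08 in cKO, at least 36.9-fold lower. The only other peak of Hrh2 had 3.07 in controls and 3.09 in cKO. At Chac1, Anks1b and Hrh2 the loss was therefore confined to 1 peak of those assigned to the gene.

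Other strong members lay inside or between genes. An exon of Scarb2, which encodes a lysosomal membrane protein, held a peak nearest to the start of the nuclear pore gene Nup54, with 6.70 in controls and 0.51 in cKO (at least 34.7-fold lower). An intron of Tmem63c held a member with 6.68 and -0.08, at least 34.2-fold lower. The intergenic member near D7Ertd443e, 122 kb from its start, had 6.64 and 0.51, at least 33.2-fold lower. Not all of the strongest members reached the bottom value. The peak of Slc35f4 at chr14:49493121-49496300 had 98.4 normalized reads in controls and 3.78 in cKO, from 6.62 to 1.92, which is 26.0-fold lower.

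The 10 largest falls also included members near Ephb2, a receptor tyrosine kinase for ephrins, Clrn1, a gene of inner ear and retina, and Limch1, a regulator of nonmuscle myosin. Their control levels were 6.50, 6.44 and 6.42, and all stood at -0.08 in cKO. The bounds are at least 30.2-, at least 28.9- and at least 28.5-fold lower.

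**Figure D2:**
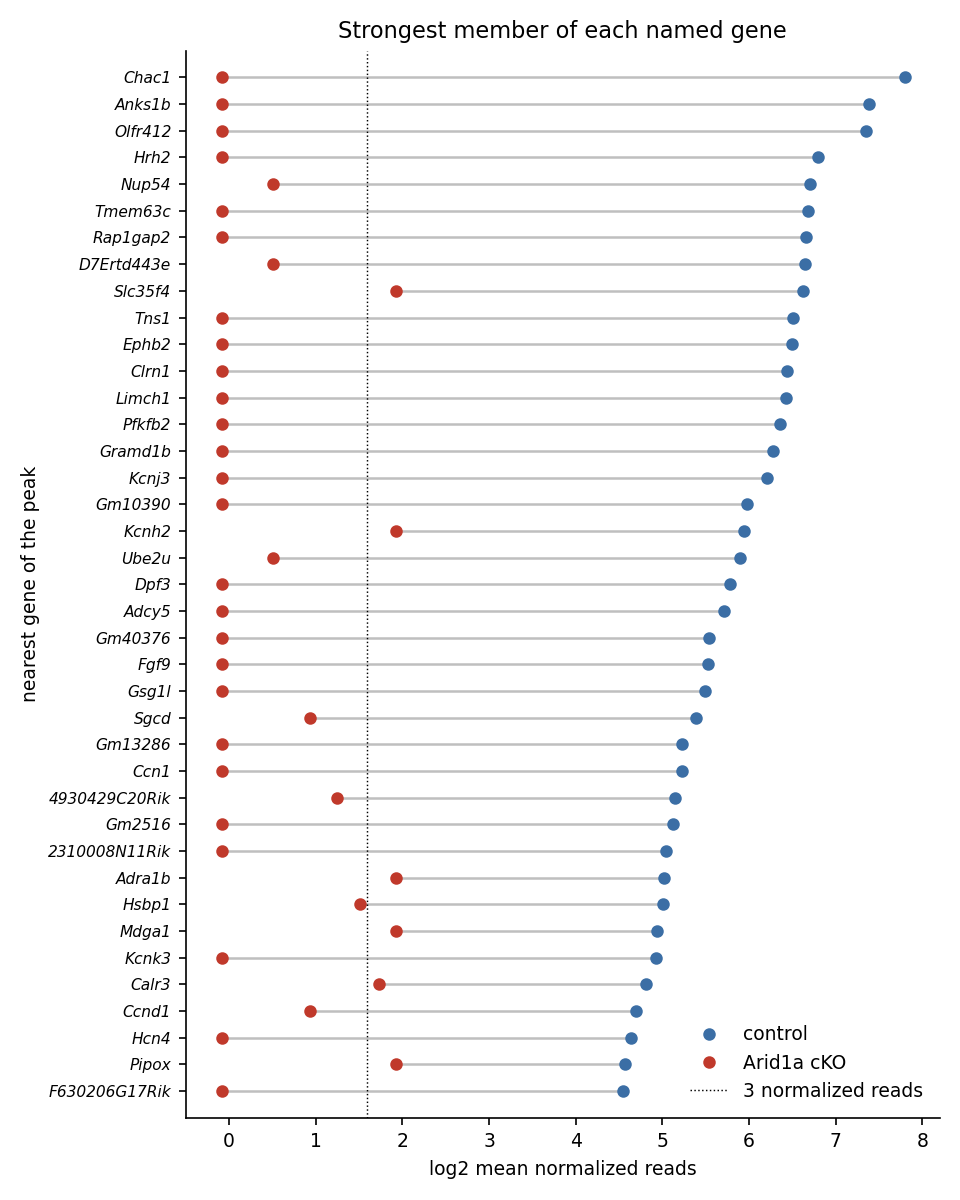
The strongest member of each named gene, with its control level (blue) and its cKO level (red) on a log2 axis of mean normalized reads, and a dotted line at 3 reads. Control levels run from 7.80 near Chac1 down to 4.55 at F630206G17Rik, and most red points lie left of the line.

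Rap1gap2, which encodes a GTPase-activating protein for Rap1, held the run with the most members. Within its transcript lay 9 members, and they fell in 1 run of 152 kb at chr11:74385040-74536555 in which 9 of 14 peaks were members. The strongest of the 9, at chr11:74431991-74436016, is nearest to the start of Olfr412, an olfactory receptor gene. It had 7.35 in controls (163 reads) and -0.08 in cKO, at least 54.4-fold lower. A second, at chr11:74447973-74449728, went from 6.66 to -0.08, at least 33.7-fold lower. Of the 7 others, 5 had control levels of 6.15, 6.13, 6.07, 5.30 and 4.61 and -0.08 in cKO. The rest had normalized reads of 39.9 in controls and 2.36 in cKO, and of 29.2 and 3.32. The run thus covers most of the gene, from its start region deep into its introns. Its start peak at chr11:74521444-74524483 went from 7.58 to 3.88 and so was lower without being a member. Of 16 peaks assigned to the locus, 14 were at least 2-fold lower, and the pair upstream of the members did not fall: 2.48 in controls and 2.73 in cKO, and 3.39 and 4.13.

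Gramd1b, which encodes a sterol transfer protein, had 4 members in 41.6 kb of introns, where 4 of 5 peaks were members. Their control levels were 6.28, 5.63, 4.60 and 4.54, and their cKO levels were -0.08, 0.51, -0.08 and -0.08. Members here sat on either side of a promoter peak that kept part of its signal, 6.38 in controls and 4.81 in cKO. Another Gramd1b promoter, at chr9:40320068-40322647, had 6.59 and 6.38.

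Tns1 encodes tensin, which ties integrin adhesions to actin. Its 3 members lay within 27.9 kb near a start, with control levels of 6.51, 5.79 and 5.57 and cKO levels of -0.08, -0.08 and 1.92. The first, at chr1:74117264-74120095, was at least 30.4-fold lower. Of the 20 Tns1 peaks 9 were at least 2-fold lower and 10 differed by at most 0.5, and the median difference was -0.48. The members lay at 1 end of the gene, and the lower peaks farther along fell less, such as 1 that went from 6.83 to 4.88.

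Dpf3 encodes a histone-reading subunit of the same BAF complexes as Arid1a. Its 3 members had control levels of 5.78, 5.66 and 5.04 and cKO levels of -0.08, -0.08 and 1.92. They were spread over the gene rather than side by side, and 9 of its 15 peaks were at least 2-fold lower. The Dpf3 start peak fell far less, with 8.03 in controls and 7.50 in cKO.

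**Figure D3:**
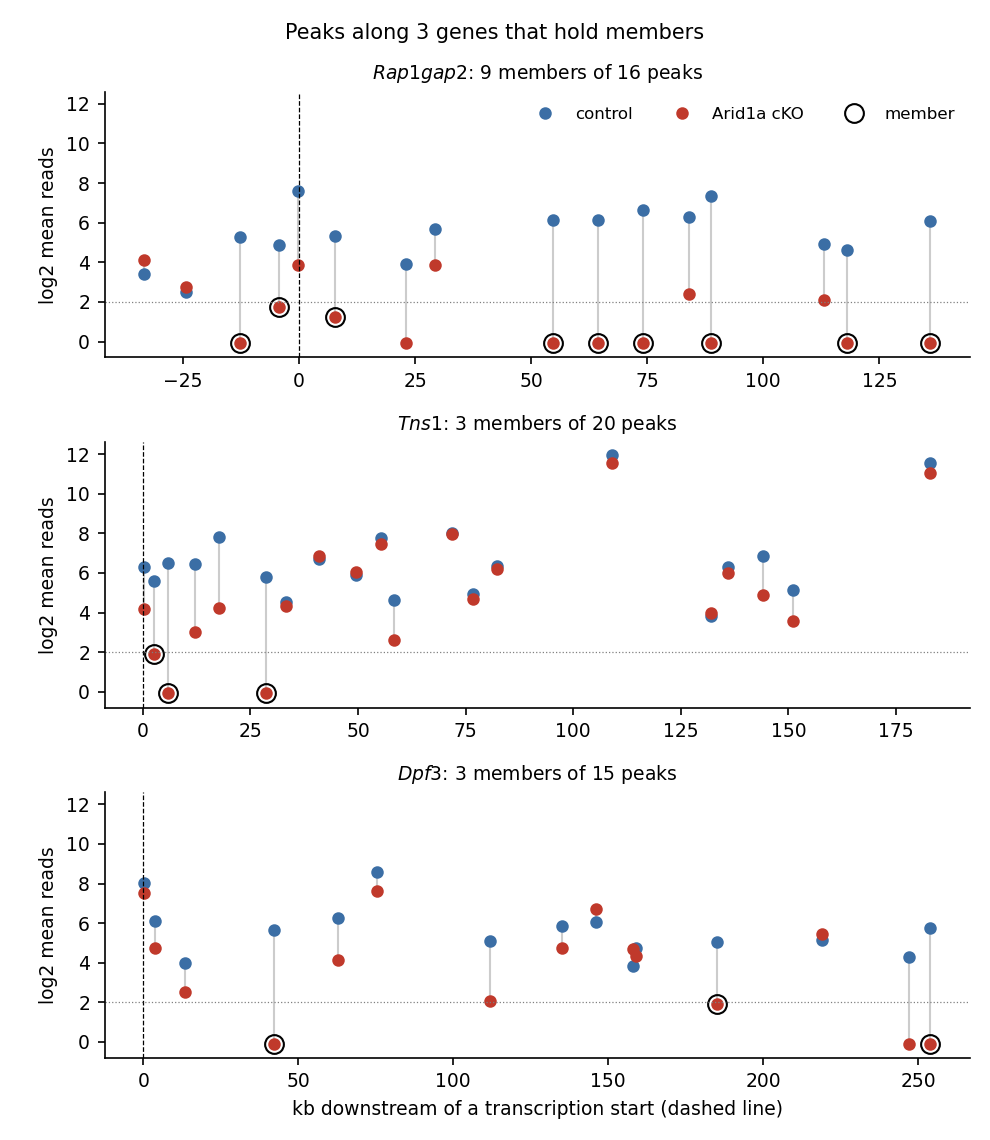
Levels of all peaks assigned to Rap1gap2, Tns1 and Dpf3 in controls (blue) and cKO (red), in log2 mean normalized reads, against the distance in kb downstream of a transcription start (dashed line), with members circled. Circles run along Rap1gap2 (9 of 16 peaks), sit near the start of Tns1 (3 of 20) and are scattered over Dpf3 (3 of 15).

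In Ror1, a receptor for Wnt ligands, 3 intronic members lay toward the far end of the gene, nearest to the start of Ube2u, a gene of the ubiquitin-conjugating family. Control levels were 5.89, 5.55 and 5.40, and cKO levels were 0.51, 1.25 and -0.08. Of 26 peaks at Ror1, 16 were at least 2-fold lower, so the members were the extreme of a wider loss. Fgf9, a secreted growth factor gene, had 3 members between genes, 77.4 to 449 kb from its start. Their control means were 46.2, 38.3 and 28.1 reads and their cKO means 0.946, 2.85 and 2.36 reads, and on the log2 scale the Fgf9 start peak had 8.79 and 8.40. Gsg1l, which encodes an accessory subunit of AMPA receptors, had 3 members with control levels of 5.49, 5.38 and 4.78 and cKO levels of -0.08, -0.08 and 1.92, the last inside Xpo6. At 4930429C20Rik, 3 of 4 peaks were members, with control levels of 5.15, 4.89 and 4.52 and cKO levels of 1.25, 1.73 and -0.08.

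The other 7 genes nearest to more than 1 member had 2 each. Gm10390 had 5.98 (inside Rbm19) and 5.30 in controls, with -0.08 and 1.51 in cKO. Hsbp1 was nearest to members in introns of Cdh13, the T-cadherin gene, with 5.01 and 4.95 in controls and 1.51 and -0.08 in cKO. Mdga1, a gene for a membrane-anchored neuronal adhesion protein, had 4.94 and 4.82, and in cKO 1.92 and -0.08. Gm40376 had control levels of 5.54 and 4.76, 2310008N11Rik of 5.04 and 4.70, and Gm2516 of 5.12 and 4.51, the last pair 813 and 815 kb from its start. Mapt, the tau gene, named after its values were seen, had 4.66 and 4.64 in controls and 0.92 and 0.51 in cKO.

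Most members nevertheless stood alone. By nearest start they belonged to 313 genes, of which 297 had 1 member and 16 had more (45 members in all). When members within 100 kb of each other were joined, 50 fell into 19 runs and 292 were by themselves. Every chromosome with a peak at or above 4.5 in controls held some, and Y had no such peak. Chromosome 5 had 29 members of 1978 peaks at or above 4.5 (1.47%), chromosome 2 had 28 of 2466 (1.14%) and chromosome 11 had 25 of 2389 (1.05%). Shares ran from 0.527% on chromosome 18 to 1.74% on chromosome 12 (23 of 1321), next to 1.08% of all annotated peaks at that level.

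Some members lay near genes of cardiac currents. Of 33 genes listed as ion channels and pumps, 31 had a peak, and their 143 peaks at or above 4.5 in controls included 5 members, while 1.08% of all annotated peaks at that level were members. Kcnj3, which encodes a subunit of the potassium channel that acetylcholine opens through G proteins, lost its promoter peak at chr2:55433973-55436724. It had 6.21 in controls (74.0 reads) and -0.08 in cKO, at least 24.7-fold lower. The other peaks of Kcnj3 were lower as well, 4.49 against -0.08 and 5.82 against 3.31, so each of its 3 peaks lost most of its signal. Kcnh2, the gene of the rapid delayed rectifier channel of repolarization, had an intronic member at chr5:24320081-24322912 with 5.94 and 1.92, 16.2-fold lower. Next to it an internal start region went from 8.39 to 5.57, but the main start peak of Kcnh2 had 9.80 in controls and 9.44 in cKO, or 695 of 891 reads.

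Kcnk3, a background potassium channel gene, was nearest to a member that lay in an intron of Gm9899, 6.46 kb from the Kcnk3 start. It had 4.93 and -0.08, at least 10.2-fold lower, beside peaks that went from 7.24 to 4.51 and from 7.52 to 4.99. The peak over the Kcnk3 start, chr5:30586052-30596717, is assigned to Gm9899 and fell far less, with 9.86 in controls and 8.93 in cKO. Of the 7 peaks at the locus, 4 were at least 2-fold lower. In Hcn4, the pacemaker channel gene, an intronic peak at chr9:58847226-58848362 had 4.64 and -0.08, at least 8.31-fold lower, and the only other Hcn4 peak had 6.37 and 5.35. At Kcnh2 and Hcn4, then, the lost peak was in an intron of the gene, at Kcnk3 in an intron of another gene, and at Kcnj3 at the promoter. Across all 199 peaks of the channel and pump list the median difference was -0.36, against 0.01 over all peaks.

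Receptor signalling and adhesion genes had single members as well, and their start peaks fell less than the members. Adcy5, a cardiac adenylyl cyclase gene, had a member with 5.71 and -0.08 (at least 17.4-fold lower) and a start peak with 8.30 and 7.39. Adra1b, an alpha-adrenergic receptor gene, had a member with 5.02 and 1.93 (8.51-fold lower) and a start peak with 8.01 and 7.62. For Sgcd, the delta-sarcoglycan gene of the membrane complex that dystrophin anchors, the member had 5.39 and 0.93 (at least 14.0-fold lower) and the start peak 8.61 and 7.57. The same held for Pfkfb2, which encodes the cardiac form of an enzyme that steers glycolysis. Its member lay over a coding exon at chr1:130698870-130701295 with 6.36 and -0.08, at least 27.4-fold lower, and its start peak had 9.13 and 8.75.

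From the cell cycle list and the YAP, TEAD and Hippo list, Ccnd1 and Ccn1 each had 1 member, and the start peak of neither was lower. A member inside LTO1 is nearest to Ccnd1, the D-type cyclin gene that promotes entry into the cell cycle, and had 4.69 and 0.93, at least 8.60-fold lower. The Ccnd1 promoter had 9.44 in controls and 9.69 in cKO. For Ccn1, a matrix protein gene that YAP activates, a member 31.9 kb from the start had 5.22 and -0.08, at least 12.4-fold lower, with a start peak at 10.09 and 10.14.

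Lists of genes by function held 14 members, 1.6% of their 877 peaks at or above 4.5 in controls, next to 1.08% of all 31766 such annotated peaks. Ion channels and pumps had 5, the intercalated disc and costamere list 4 (Sgcd and the 3 of Tns1) of 105, calcium handling and adrenergic signalling 2 (Adcy5 and Adra1b) of 98, energy metabolism 1 of 106, cell cycle 1 of 67 and the YAP, TEAD and Hippo list 1 of 69. The sarcomere list (128 peaks) and the list of cardiac transcription factors (161 peaks) had 0. Median differences over all peaks of these lists were -0.36 for channels and pumps, -0.26 for sarcomere, -0.26 for cardiac transcription factors, -0.2 for energy, -0.15 for disc and costamere, -0.04 for calcium and adrenergic, 0.08 for YAP, TEAD and Hippo and 0.18 for cell cycle. With an overall share of 1.08%, lists of this size hold few members or none, so a count of 0 is near the background, and no list was tested.

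Markers of cell types had 0 members among 189 peaks at or above 4.5, which is likewise near the overall share of 1.08%. The median difference was -0.2 over 54 cardiomyocyte marker peaks, 0.08 for endothelial markers (107 peaks), 0.37 for fibroblast markers (86), 0.16 for smooth muscle and pericyte markers (24), 0.23 for leukocyte markers (11), -0.22 for Schwann cell markers (2), 0.02 for epicardial markers (14) and 0.3 for atrial markers (20). By these medians fibroblast, atrial, leukocyte, and smooth muscle and pericyte markers stood higher in cKO. Cardiomyocyte and Schwann cell markers stood lower, and endothelial (0.08) and epicardial (0.02) markers were close to level. The part of cell composition in the members' loss was not tested. For the tissue label, most cardiomyocyte markers had strong peaks in both groups: Myh6 had 11.81 in controls and 11.94 in cKO, Ryr2 11.13 and 10.99, Actn2 10.49 and 10.09, Tnnt2 10.41 and 9.98, Ttn 9.89 and 9.67, and Mybpc3 9.88 and 9.63. The highest Tnni3 peak had only 5.46 and 5.74, near the median of all peaks, and Actc1 was the nearest gene of no peak. The Arid1a promoter itself had 10.65 and 10.70, so the genotype cannot be read from its acetylation.

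Members were rarely promoters. In the annotation, 193 (56.4%) were in introns, 129 (37.7%) between genes, 7 in noncoding or UTR exons, 5 in coding exons, 3 at transcript ends and 5 (1.46%) at promoters, from 1000 bp before to 100 bp after a start. Besides Kcnj3 the promoters were those of Gm13286 (5.23 in controls, -0.08 in cKO), Calr3, a testis calreticulin gene (4.81 and 1.73), Pipox, a peroxisomal oxidase gene (4.57 and 1.92), and F630206G17Rik (4.55 and -0.08). The median distance from a member to the nearest start was 29.7 kb, and 130 members (38.0%) were more than 50 kb away.

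Position was not used to choose the members, so it was tested across peaks. Members were compared with the 24603 other peaks in the same control range, 4.5 to 7.80, by regressions that allow for control level and width, 24945 peaks in all. Promoters made up 13.0% of the others, and the odds ratio for members was 0.128 (95% interval 0.0519 to 0.317, n = 24945 peaks, p = 8.7e-06, adjusted p = 1.3e-05 over 3 classes). Introns made up 49.0% of the others, with an odds ratio of 1.43 (1.09 to 1.88, n = 24945 peaks, p = 0.0096, adjusted p = 0.0096). Sites between genes and over 50 kb from a start made up 19.6% of members (67) and 10.8% of others, with an odds ratio of 1.9 (1.45 to 2.49, n = 24945 peaks, p = 2.6e-06, adjusted p = 7.9e-06). Members were thus depleted at promoters and enriched in introns and far from genes. Peaks are not independent replicates, and these tests compare peaks of 1 table, not hearts.

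The start peaks of the same genes fell far less than the members. Of 306 genes nearest to the 334 members away from a start, 181 had a start peak. Its median level was 7.37 in controls and 7.10 in cKO, with a median difference of -0.18, and 129 of the 181 differed by at most 0.5. At least 2-fold lower were 19 (10.5%), and 1 was a member itself, that of Gm10390. For genes nearest to the other peaks of the control range the median difference was -0.01, 4390 of 5038 start peaks differed by at most 0.5, and 114 (2.26%) were at least 2-fold lower. The start peaks of the members' genes were thus less steady than those. These counts come from the same contrast as the members and carry no test.

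Closer neighbours were lower more often. The nearest other peak to a member lay at a median of 7.48 kb and had a median difference of -0.70. It was at least 2-fold lower for 151 members (44.2%), against 10.8% for other peaks of the control range and 32.6% for those of them that were at least 2-fold lower. It was itself a member for 23 of the 342, for 196 of the 24603 other peaks and for 84 of the 2883 lower ones among them. For 86 members (25.1%) it was level or higher in cKO, as at Chac1, next to 51.3% for the other peaks and 24.9% for the lower ones. Collapse therefore came both in wider zones of loss, as at Rap1gap2, and as single peaks.

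Base composition was also not used to choose the members. The regressions did not allow for promoters, which were 1.46% of members and 13.0% of the others, so these differences are not separate from the rarity of promoters. In the central 500 bp, GC content averaged 48.0% in members and 51.2% in the others, and CpG dinucleotides 1.18 and 2.95 per 100 bp. With control level and width allowed for, the differences were -3.41 points of GC (-4.22 to -2.61, n = 24945 peaks, adjusted p = 1.6e-16) and -1.78 CpG (-1.94 to -1.61, adjusted p = 3.4e-103). Repeats covered 14.5% and 13.1%, a difference of 2.85 points (1.08 to 4.63, adjusted p = 0.0016). Members were thus poorer in CpG and GC and slightly richer in repeats, although the repeat difference did not pass without the covariates (1.41 points, adjusted p = 0.081).

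Motifs of 12 factor families were searched on both strands of the central 500 bp, and a match describes letters, not binding. The regressions allow for width, GC content and control level, but not for promoter class. The nuclear receptor core AGGTCA, shown above at the 4 strongest members, was in 153 members (44.7%) and 29.9% of the others, with an odds ratio of 1.71 (1.33 to 2.21, n = 24945 peaks, p = 3.8e-05, adjusted p = 0.00045). The MEIS motif TGACAG was in 150 members (43.9%) and 33.2% of the others (odds ratio 1.46, 1.18 to 1.8, n = 24945 peaks, p = 0.00051, adjusted p = 0.003). The E-box CAGGTG was in 116 (33.9%) and 28.0% (odds ratio 1.57, 1.18 to 2.1, n = 24945 peaks, p = 0.0023, adjusted p = 0.0093). The MEF2 motif was in 25 (7.31%) and 3.03% (odds ratio 1.7, 1.15 to 2.53, n = 24945 peaks, p = 0.0082, adjusted p = 0.025). These 4 motifs were more frequent in members than in other peaks of like strength, width and GC content. The authors had already reported MEF2, estrogen related receptor, SLUG and ZEB motifs as enriched where H3K27Ac was reduced in these same hearts. The tests of these families here are therefore not independent of that report. The MEF2 result did not pass without X and Y (1.59, adjusted p = 0.054), nor did the E-box in a window of 1000 bp (1.43, adjusted p = 0.11) or without covariates (1.32, adjusted p = 0.14).

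The other 8 did not pass in that window. The GATA motif AGATAA was in 20.8% of members and 21.7% of others (odds ratio 0.765, 0.602 to 0.97, n = 24945 peaks, p = 0.027, adjusted p = 0.054), and the TBX motif AGGTGT in 24.9% and 20.6% (odds ratio 1.33, 1.04 to 1.71, n = 24945 peaks, p = 0.024, adjusted p = 0.054). The ESRR motif TCAAGGTCA, which contains the nuclear receptor core, was in 2.92% and 1.52% (odds ratio 1.51, 0.748 to 3.06, adjusted p = 0.37), but passed over 1000 bp (1.76, adjusted p = 0.048) and over whole peaks (1.68, adjusted p = 0.0046). The TEAD motif CATTCC was in 28.7% and 26.0% (1.03, 0.834 to 1.27, adjusted p = 0.8). For the cardiac regulator GATA the odds ratio moved toward 1 over 1000 bp (0.906, adjusted p = 0.42), over whole peaks (0.978, adjusted p = 0.81) and without covariates (0.948, adjusted p = 0.64). The NKX2-5 motif TNAAGTG was in 23.7% and 22.4% (odds ratio 0.916, 0.671 to 1.25, adjusted p = 0.7; 1.12 over 1000 bp), and the AP-1 motif in 12.3% and 14.2% (odds ratio 0.729, 0.473 to 1.12, adjusted p = 0.26). The SRF motif, CC and GG around 6 bases that are each A or T, was in 3.22% and 2.6% (odds ratio 1.1, 0.58 to 2.08, adjusted p = 0.8), and the GR/MR motif in 16.7% and 13.6% (odds ratio 1.12, 0.847 to 1.47, adjusted p = 0.58), which passed over whole peaks (1.37, adjusted p = 0.0065). Letters are shared not only by ESRR and the nuclear receptor core but also by the TBX motif and the E-box.

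Most of what sets members apart from other peaks was shared by peaks that fell less. In the same control range, 2883 other peaks were at least 2-fold lower in cKO without being members, and the comparison with them (3225 peaks in all) was added after the data were seen. Of these partly lower peaks 1.77% were promoters, 60.4% intronic and 6.69% held the MEF2 motif. Against them, members had odds ratios of 0.813 for promoters (0.358 to 1.85, adjusted p = 0.62), 0.871 for introns (0.687 to 1.1, adjusted p = 0.38), 0.885 for MEF2 (adjusted p = 0.67) and 1.19 for the nuclear receptor core (adjusted p = 0.54). MEIS (1.17, adjusted p = 0.54) and the E-box (1.16, adjusted p = 0.57) did not pass either, and GC content differed by 0.102 points (-0.604 to 0.809, adjusted p = 0.78).

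What did differ between members and partly lower peaks was distance, CpG and the GATA motif. Sites between genes and over 50 kb from a start were 19.6% of members and 13.4% of partly lower peaks (odds ratio 1.52, 1.17 to 1.98, n = 3225 peaks, p = 0.0019, adjusted p = 0.0057). CpG dinucleotides were fewer in members, with a difference of -0.158 per 100 bp (-0.251 to -0.0654, adjusted p = 0.0025). The GATA motif was in 20.8% of members and 27.2% of partly lower peaks (odds ratio 0.668, 0.511 to 0.872, n = 3225 peaks, p = 0.0031, adjusted p = 0.037). Members were thus farther from genes, poorer in CpG and less often held a GATA motif in the central 500 bp than peaks that fell in part.

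**Figure D4:**
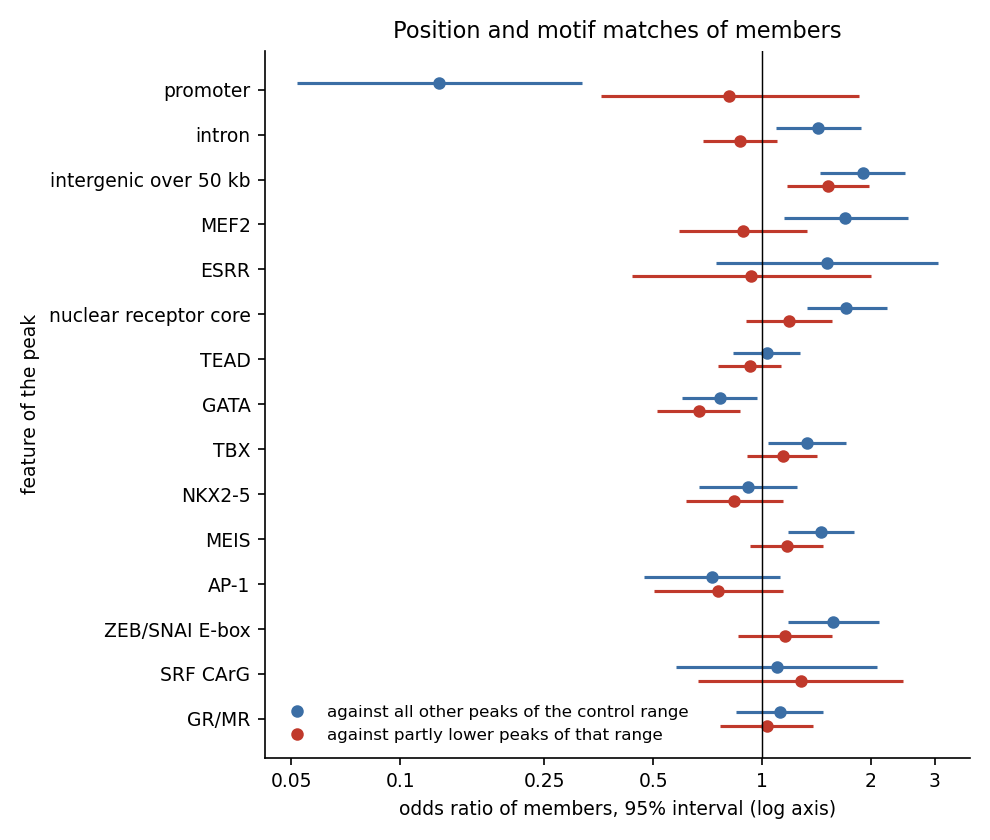
Odds ratios with 95% intervals (log axis) for 3 position classes and 12 motifs in members, against all other peaks of the control range (blue) and against the partly lower ones (red). Blue intervals for promoters, introns, far intergenic sites, MEF2, the nuclear receptor core, MEIS and the E-box exclude 1, as do those of GATA and TBX before adjustment, while red intervals exclude 1 for far intergenic sites and GATA.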

How the data were processed

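H3K27Ac ChIP-seq was done on P7 ventricles, 2 control and 2 cKO hearts, with 4 input libraries. The authors aligned reads to mm10 with BWA 0.7.17-r1188 and called peaks with HOMER (histone style; 4.11 in the labels' tool list, while the methods name another version) against merged inputs. Peaks called in 2 samples or more entered the table. The authors ran DESeq2 1.24.0 through DiffBind 2.12.0. The deposited values are log2 of the mean normalized reads per peak over each group; library scaling and input treatment are not stated. The 3 columns of the authors' own comparison were not used. With 0 columns for single libraries, depth per sample is unknown and there is no SD.

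Members were taken by the rule given in the report. Where the cKO mean did not exceed 3 normalized reads, over the group, the fold is a lower bound, the control mean divided by 3. Peaks were annotated with 45756 curated RefSeq transcripts (GRCm38) on 21 chromosomes and assigned to the nearest start; 7 peaks on unplaced sequence were left out, leaving 45980. Promoters reach from 1000 bp before to 100 bp after a start. Motif matches, classes and base composition were compared by logistic or linear regression across peaks, with standard errors clustered by chromosome, two-sided Wald tests and Benjamini-Hochberg adjustment over 12 motifs, 3 classes and 3 measures at 0.05. Covariates were control level and log2 width, with GC content for motifs. The code was tested on simulated data. Peaks are not independent replicates.

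Named genes were the nearest genes of the 10 members with the highest control level, of the 10 with the largest fall, of 2 or more members, of members at promoters, and listed genes nearest to a member; 1 of these genes and 1 sequence are not reported here. Lists were 8 by function and 8 of cell type markers. The members and lists were chosen with earlier results of these data known. Alternatives changed the thresholds, window, promoter definition, covariates, gene assignment and chromosomes. Python 3.11.15, numpy 2.4.6, pandas 2.3.3, scipy 1.17.1, statsmodels 0.14.6 and matplotlib 3.10.9 were used.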

Additional observations from a re-analysis of the deposited data

How the results depend on the processing

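Of 123 alternative values for 18 tested results, 102 kept their direction and their side of the adjusted p of 0.05, and 21 did not. With a central window of 1000 bp the odds ratio was 1.76 for ESRR, now past the threshold, and 1.43 for the ZEB/SNAI E-box, no longer past it. Over the whole peak ESRR had 1.68 and GR/MR 1.37, both now past it. Without covariates the E-box had 1.32 and the repeat share a difference of 1.41 points, neither past it. Without X and Y, MEF2 had 1.59 (adjusted p = 0.054). In the comparison with partly lower peaks, chosen after seeing the data, 5 results changed direction: MEF2 (0.885), introns (0.871), GC content (0.102), ESRR (0.934) and TEAD (0.927), the last pair past the threshold in neither comparison. Promoters (0.813), the nuclear receptor core (1.19), MEIS (1.17), the E-box (1.16) and the repeat share (0.949) no longer passed, and GATA (0.668) now did. NKX2-5, never past the threshold, moved from 0.916 to 1.12 over 1000 bp, 1.08 over the whole peak and 1.08 without covariates. Leaving out the peaks inside Rap1gap2, also chosen after seeing the data, changed no call. For all of these the cause was not tested. With either threshold moved by 0.25 up or down there were 254 to 450 members, and without X and Y 337. No paired analysis was possible because the table holds group means only and no value per heart, although the labels number the hearts 1 and 2 in each group. The table gives no depth, so how few reads in cKO could have been detected is unknown.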
